A study of Mus musculus with 36 samples.

Results

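The genes described here encode the machinery of oxidative phosphorylation, and they were taken by name: every gene of the table whose symbol begins with Nduf, Uqcr, Atp5, Sdha, Sdhb, Sdhc, Sdhd, Cox4, Cox5, Cox6, Cox7 or Cox8, pseudogene symbols with -ps left out. The rule gave 88 of the 12762 genes measured. It used no measured value. Of the 88 genes, 76 encode subunits of a respiratory complex or of the ATP synthase, and 12 carry such a prefix without being a subunit. The subunits were 36 of complex I, 4 of complex II, 8 of complex III, 13 of complex IV (Ndufa4 is counted there, where its protein is now placed) and 15 of complex V, the ATP synthase. The other 12 were the complex I assembly factors Ndufaf1 to Ndufaf7, the complex II assembly factors Sdhaf1 and Sdhaf2, the supercomplex factor Cox7a2l, and Atp5s and Atp5sl.

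Oxidative phosphorylation takes place in the inner mitochondrial membrane. Complexes I and II pass electrons from NADH and succinate to ubiquinone, complex III passes them to cytochrome c and complex IV to oxygen, and complexes I, III and IV pump protons whose return through complex V drives ATP synthesis. Most subunits are encoded in the nucleus and a small set in the mitochondrial DNA, so that the complexes are put together from the products of both genomes with the help of assembly factors. In developing B cells the large, dividing pre-B stage is known for high metabolic activity and the small, resting stage that follows it for a lower one.

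The cells were B3, a mouse pre-B cell line. Ikaros cells carried an MSCV retrovirus whose insert joins wild type Ikaros, with a haemagglutinin tag, to ERt2, the part of the estrogen receptor that binds hormone, and also yields GFP through an IRES, so that 4-hydroxy-tamoxifen (4-OHT) moves the fusion protein into the nucleus. Control cells carried the vector with no Ikaros. Both lines were sampled at 0, 2, 6, 12, 18 and 24 h with 3 libraries per group, 36 in all, and the drug, 0.5 uM 4-OHT, was given to both lines at the later times. For the 0 h groups the labels also list the drug, whereas the methods describe cells without it that were collected on separate occasions, so any comparison with 0 h compares occasions too. The libraries came from numbered batches, which from 2 h on are repeats of the time course. Replicates 1, 2 and 3 were batches 1, 2 and 4 at 0 h and batches 1, 3 and 4 thereafter. No source used here says that either line is a single clone.

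All values are expression as deposited by the authors, normalised for GC content and gene length and read here as log2, with a constant added to the table, so a level is relative and only differences between libraries can be read as log2 fold changes. The depth of the libraries is not known from these values, and precision is set by the 3 libraries per group. Library medians over all genes lay between 11.70 and 11.73. Ikzf1, which encodes Ikaros, lay between 13.95 and 14.85 in the 18 control libraries and between 19.63 and 20.93 in the 18 Ikaros libraries, and at 0 h the lines already differed by 5.19. All 11 pre-B markers listed for the check were in the table, with a median of 15.23 to 15.73 in the control libraries at 0 h. In Ikaros cells the median of the 11 was between 12.93 and 13.47 at 6 h and between 15.15 and 15.84 at 24 h, but single markers moved apart. At 24 h, 8 of the 11 were higher and 2 lower than in control cells: the surrogate light chain genes Igll1 and Vpreb1 differed by -3.96 and -3.42, and Rag1, Blnk, Cd79b and Il7r by 5.19, 4.14, 2.29 and 2.15. None of 5 T cell markers was in the table as read here. The myeloid marker Itgam was between 3.66 and 4.75 in Ikaros cells at 0 h and between 9.18 and 9.63 at 24 h, while Lyz2 was between 8.82 and 9.86 at 0 h and between 4.06 and 5.26 at 24 h. Between 0 and 24 h the difference between the lines changed by 5.02 for Itgam and -5.87 for Lyz2 (adjusted p = 4.54e-06 and 6.49e-07 in limma). Of the erythroid markers Hbb-b1 changed by 2.59 (adjusted p = 0.00245 in limma) and Klf1 by 0.31 (adjusted p = 0.615). The part of these marker changes in the results was not tested. In bulk RNA, fewer cells of a kind and less RNA per cell cannot be told apart, and each value is relative to the rest of the mRNA.

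The 88 genes were among the more strongly expressed in the table. Their mean levels ran from 10.11 to 18.43 with a median of 14.97, and 85 of them lay above the median gene mean of 11.72. They are short, with a median longest transcript of 1231.5 bases against 3071 bases for all genes, and of ordinary GC content, 49.89% against 49.65%. In the annotation (GENCODE mouse release 21, GRCm38, the same build as the mm10 of the files) all 88 are protein coding and 41 overlap another annotated gene, 28 of them another protein-coding gene. The strand setting of the counting is not given in the sources used here, so values of such genes are uncertain. An overlap with another protein-coding gene is named beside each member described below, and Sdha, Cox5a, Atp5b and Atp5g2 overlap only a pseudogene or non-coding RNA genes.

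Sequence upstream of the transcription start is shown for 6 genes whose courses are described below: the 3 genes that encode the same c subunit of the ATP synthase and moved apart, and the genes Ndufaf4, Uqcr10 and Cox7a2l, which had the lowest difference of the members at 24 h, the lowest of complex III and the highest of the members. Each line gives the 200 bases before the start, 5′ to 3′ in the direction of transcription, from RefSeq on GRCm38.p6. In the GENCODE annotation Atp5g2 and Cox7a2l begin further upstream than this start, so their stretches lie inside the annotated gene. Capitals mark a match, on either strand, to 1 of 5 motifs: a palindrome known for NRF1 (the run in capitals in the line of Atp5g2), AAGATGGC (YY1), CCGGAAG (ETS family, bound by GABP), TGGGAA (the core known for Ikaros) and CACGTG (E-box). The stretches of Atp5g1 (minus strand, chr11:96075632-96075831), Atp5g2 (minus strand, chr15:102671048-102671247), Atp5g3 (minus strand, chr2:73911327-73911526), Ndufaf4 (plus strand, chr4:24897883-24898082), Uqcr10 (minus strand, chr11:4704345-4704544) and Cox7a2l (minus strand, chr17:83514334-83514533) follow.
Atp5g1: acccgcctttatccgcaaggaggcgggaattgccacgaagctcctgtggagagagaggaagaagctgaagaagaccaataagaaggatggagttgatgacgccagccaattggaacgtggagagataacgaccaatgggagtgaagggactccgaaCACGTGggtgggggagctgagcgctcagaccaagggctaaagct
Atp5g2: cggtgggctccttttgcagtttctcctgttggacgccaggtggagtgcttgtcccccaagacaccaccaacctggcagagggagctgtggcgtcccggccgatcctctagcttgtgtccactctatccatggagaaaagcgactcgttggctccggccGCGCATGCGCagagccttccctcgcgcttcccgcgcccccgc
Atp5g3: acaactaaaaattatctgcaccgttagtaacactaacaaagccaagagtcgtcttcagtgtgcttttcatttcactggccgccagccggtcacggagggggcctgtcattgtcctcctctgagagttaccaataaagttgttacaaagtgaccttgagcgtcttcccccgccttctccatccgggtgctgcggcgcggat
Ndufaf4: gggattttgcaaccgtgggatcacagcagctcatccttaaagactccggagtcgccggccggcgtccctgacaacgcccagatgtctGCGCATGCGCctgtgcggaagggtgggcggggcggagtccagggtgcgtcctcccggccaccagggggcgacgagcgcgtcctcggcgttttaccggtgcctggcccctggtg
Uqcr10: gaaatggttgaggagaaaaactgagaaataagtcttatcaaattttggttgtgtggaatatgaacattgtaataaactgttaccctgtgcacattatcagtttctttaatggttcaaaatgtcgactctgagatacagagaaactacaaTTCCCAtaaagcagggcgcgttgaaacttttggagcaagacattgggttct
Cox7a2l: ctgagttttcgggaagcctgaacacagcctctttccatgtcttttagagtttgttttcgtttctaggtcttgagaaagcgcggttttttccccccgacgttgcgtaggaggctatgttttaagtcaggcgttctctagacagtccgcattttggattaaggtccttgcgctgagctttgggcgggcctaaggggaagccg

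The 5 motifs were counted in windows that reach from 250 bases before to 50 bases after the start, on both strands. RefSeq windows were matched for 75 of the 88 genes, 81 windows in all. The NRF1 motif stood in 8.64% of the member windows, against 2.16% of the windows of all genes in the table and 0.971% of all 32851 windows. For YY1 the shares were 14.8%, 4.71% and 2.75%, for the ETS motif 23.5%, 18.6% and 8.86%, and for the E-box 11.1%, 10.0% and 7.15%. The Ikaros core was found in 19.8% of the member windows, 22.6% of those of all genes in the table and 25.6% of all windows. The member windows were also divided, after the expression values had been seen, into the 46 windows of members called lower at 24 h and the 35 of the other members. The NRF1 motif stood in 10.9% and 5.71% of them, the YY1 motif in 10.9% and 20.0%, the ETS motif in 21.7% and 25.7%, the E-box in 10.9% and 11.4%, and the Ikaros core in 30.4% and 5.71%. The windows of all genes were not divided in this way, so these shares have no background beside them. Windows of the same gene can overlap: the 2 of Atp5d hold the same Ikaros core and both were counted. No motif contains another. A match says only that these letters are in the window, and no test was made of any of these shares.

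The first question was how the lines differed at each time. The median difference between the lines over the 88 genes was near 0 at 0 and 2 h, though single genes such as Cox6a2 differed. At 24 h most of the genes that differed were lower in Ikaros cells. The median difference, Ikaros minus control, was -0.01, 0.06, -0.17, 0.06, -0.34 and -0.50 over the 6 times in order (n = 3 per line and time), while the median over all 12762 genes stayed between -0.03 and -0.0025. Genes were called at an adjusted p below 0.05 in limma, adjusted by Benjamini-Hochberg over all genes. At 0 h, 2 of the 88 were called (8.33% of all genes were), and at 2 h 3 were (19.1% of all genes, 9.18% higher and 9.88% lower). At 6 h, 14 were called (37.3% of all genes), 2 higher and 12 lower, against 18.1% and 19.2% of all genes. With each library centred on its median the split at 6 h was 4 higher and 11 lower. With the trend in GC content and length removed it was 4 and 7, and with the culture batch as a block as well 6 and 9. Without replicate 1 it was 2 and 3. At 2 h, 9 were called without replicate 3.

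At 12 h more genes were called higher than lower, with 17 genes higher (23.0% of all genes) and 9 lower (22.8%) in Ikaros cells, 45.8% of all genes being called either way. Without replicate 1 the split was 8 higher and 7 lower, and without replicate 2 it was 10 and 5. At 18 h, 9 were higher (29.0% of all genes) and 36 lower (29.2%), with 58.2% of all genes called. At 24 h, 8 were higher and 48 lower, when 31.0% of all genes were higher and 31.9% lower. These 56 genes are 63.6% of the 88, close to the 62.9% of all genes called at that time. With a difference of at least 1 on the log2 scale as well, 20 genes were lower and 3 higher, and 32.7% of all genes passed both limits in either direction. These 23 genes are a smaller share of the 88 than that. The share of all genes in each direction is not given here.

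The 3 libraries of a line lay wholly below the 3 of the other in 58 of the 88 genes at 24 h for Ikaros cells (36.1% of all genes) and wholly above in 8 (35.0% of all genes). Within culture batches, the median difference of the 88 genes at 24 h was -0.51, -0.35 and -0.57 for batches 1, 3 and 4, with 68, 69 and 69 of the genes below 0. Of the 56 genes called at 24 h, 55 had the same sign in all 3 batches. At 12 h the batches differed, with medians of 0.25, -0.04 and -0.01. At 6 h they were -0.34, 0.00 and -0.17.

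**Figure D1:**
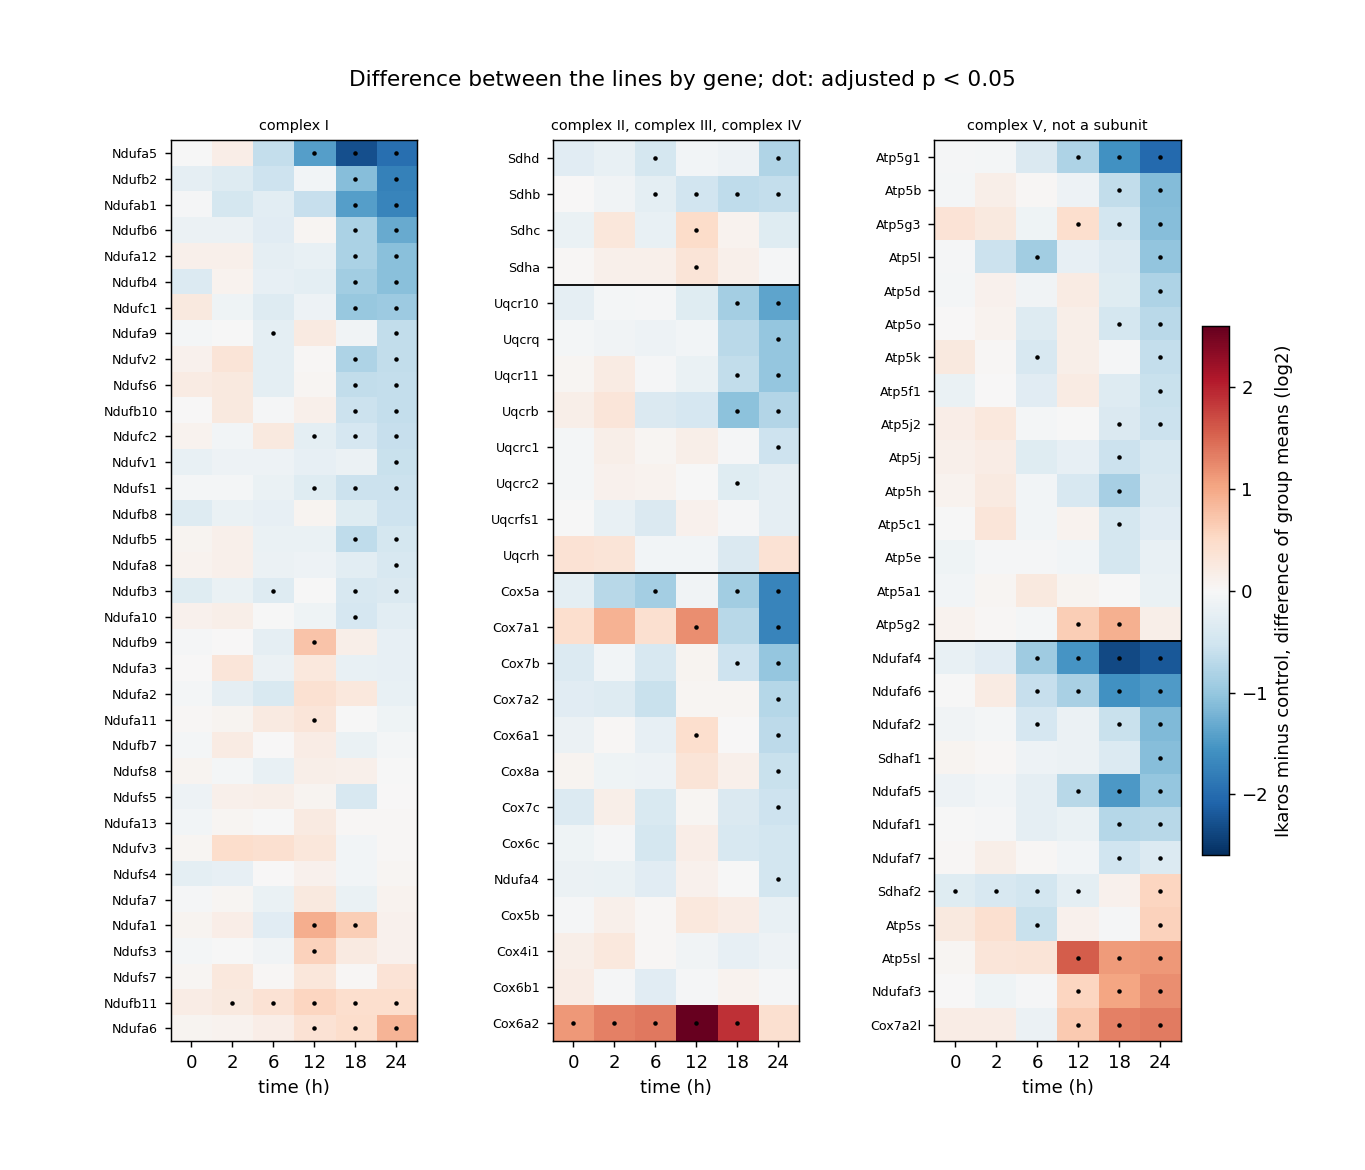
Each row is a gene, with 1 of the 88 not shown, sorted within its complex by the difference at 24 h, and each column is a time in hours. The colour gives the difference of the group means of 3 libraries, Ikaros minus control, on the log2 scale, and a dot marks an adjusted p below 0.05 in limma. Blue fields with dots dominate at 18 and 24 h, with 36 and 48 of the 88 genes called lower, and red fields with dots are most frequent at 12 h, with 17 of the 88 called higher.

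The lines were next compared with their own 0 h. In Ikaros cells the members first lay above 0 h and later below it. For 2, 6, 12, 18 and 24 h the median change in Ikaros cells was 0.25, 0.20, 0.21, -0.08 and -0.30. At 2 h limma called 6 genes higher and 0 lower (9.54% and 9.61% of all genes, 19.2% together). At 6 h the numbers higher and lower were 10 and 2 (17.1% and 15.6% of all genes, 32.8% together), and at 12 h 18 and 5 (24.0% and 22.2%, 46.1% together). At 18 h they were 11 and 25 (28.1% and 26.5% of all genes, 54.6% together), and at 24 h 9 and 37 (31.0% and 29.6%, 60.6% together). At 2 h, 0 or 1 of the 88 genes was called without each replicate in turn, and 21 with the culture batch as a block. Without replicate 2 the count was 0 for 6 h and 11 for 12 h, and without replicate 3 it was 5 for 6 h. The shares of all genes called in Ikaros cells under these settings are not given here, so these counts have no background.

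In control cells the median change for the same times was 0.15, 0.31, 0.08, 0.17 and 0.14. At 6 h 7 genes were called higher in control cells (2.59% of all genes, and 5.10% called either way). This count was 33 with the culture batch as a block, and 0 without each replicate in turn and with only the compared groups in the fit. No share of all genes under the block is given here, so the 33 cannot be set against the 2.59% or 5.10%. At the other times limma called 0 of the 88 genes in control cells, where 0.0470%, 0.0549%, 0.478% and 0.470% of all genes were called at 2, 12, 18 and 24 h. At an unadjusted p below 0.05 the counts of members there were 8, 1, 8 and 7, beside 7.88%, 5.70%, 14.9% and 11.7% of all genes.

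The libraries show the same course one by one. For each library the median over the 88 genes of the deviation from the control mean at 0 h was taken. In Ikaros cells at 24 h it was -0.36, -0.27 and -0.30 in batches 1, 3 and 4, and at 18 h -0.10, -0.13 and -0.12. In control cells it was 0.09, 0.08 and 0.25 at 24 h and 0.04, 0.06 and 0.37 at 18 h. The lines did not overlap at these times, and they did at 2, 6 and 12 h. Batch 4 gave the highest library of the 3 in control cells at each time from 2 h on and in Ikaros cells at 2 and 6 h, and the part of the batch in these medians was not tested beyond the within-batch values above.

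**Figure D2:**
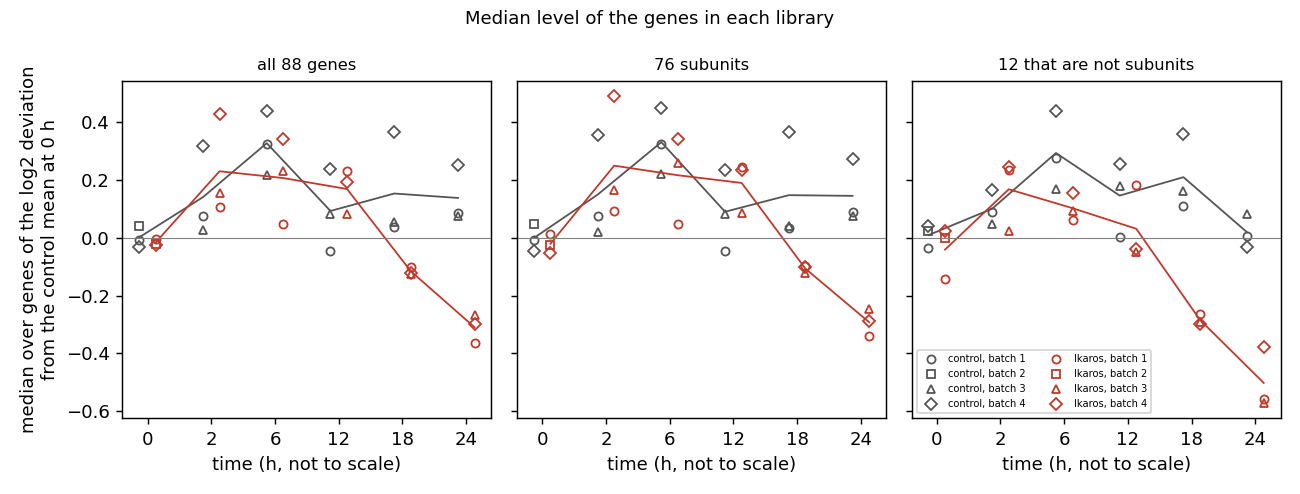
Each symbol is 1 library, grey for control and red for Ikaros, with its shape giving the culture batch. The y axis is the median, over the genes of the panel, of the log2 deviation from the control mean at 0 h, the x axis is time in hours (not to scale), and the lines join group means. The Ikaros libraries at 18 and 24 h, between -0.10 and -0.36 for the 88 genes, lie below all control libraries of those times.

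The change of the difference between the lines was tested as well. Between 0 and 24 h the difference between the lines changed in 43 of the 88 genes (48.4% of all genes), upward in 6 and downward in 37, each direction holding 24.2% of all genes. Between 2 and 24 h, a comparison that uses no 0 h library, it changed in 48 (47.3% of all genes), upward in 6 (23.3% of all genes) and downward in 42 (24.0%). At 2, 6, 12 and 18 h against 0 h the limma counts were 0 (3.10% of all genes; 3 members and 12.9% of all genes at an unadjusted p below 0.05), 3 (15.9%), 12 (29.7%) and 32 (43.0%), and the F test over the 5 changes called 50 (59.8% of all genes). These counts fell when a replicate was left out: to 25 without replicate 1 for 24 h against 0 h, to 31 and 27 without replicates 1 and 2 for 24 h against 2 h, and to 31 and 27 for the F test. For 6, 12 and 18 h they were 0, 7 and 20 without replicate 1 and 0, 2 and 17 without replicate 2.

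The time at which a gene was first called also differed among the members. The 11 genes first called at 6 h were all lower in Ikaros cells (11.8% of all genes were first called there and lower), among them Sdhb, Sdhd, Cox5a, Ndufaf4 and Ndufaf6. Of the 20 first called at 12 h, 15 were higher and 5 lower (8.89% and 8.66% of all genes). The 24 first called at 18 h and the 11 first called at 24 h were all lower (6.95% and 3.99% of all genes). The share of all genes first called higher was not counted for 6, 18 and 24 h. Of the 17 genes called higher at 12 h, 6 were called higher and 3 lower at 24 h. Called in both directions at different times were Cox6a1, Cox7a1, Atp5g3, Atp5s and Sdhaf2, while 7.93% of all genes were. At no time were 19 of the genes called (17.3% of all genes), among them the complex IV subunits Cox4i1, Cox5b and Cox6b1, the Rieske iron-sulphur protein gene Uqcrfs1 and Atp5a1, the alpha subunit of the ATP synthase (examples chosen after the values were seen). Haus1 overlaps Atp5a1 on the other strand, and Emc8 on the other strand and Gm20388 on the same one overlap Cox4i1.

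Complex I is the largest of the complexes and takes in electrons from NADH. Of its 36 genes, 17 were lower and 3 higher in Ikaros cells at 24 h, with a median difference of -0.32. Over all genes 31.9% were lower and 31.0% higher at that time, and the counts of each complex and list at 24 h stand against those shares.

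Ndufa5, a supernumerary subunit of the matrix arm, was the lowest of complex I at 24 h. Its level was 12.60, 12.58 and 12.89 in control and 10.46, 11.00 and 10.71 in Ikaros cells. The difference was -1.97 ± 0.29 (SE, n = 3 per line; adjusted p = 1.16e-06 in limma). The lines did not overlap, and the gene was already lower 12 h (-1.42) and 18 h (-2.28) into the course. Ndufb2, of the membrane arm, differed by -1.76 ± 0.46 at 24 h (adjusted p = 0.00174 in limma), and its annotation overlaps Braf on the other strand and the protein-coding Gm42420 on its own. At 0 h the means of Ndufb2 were 12.66 in control and 12.43 in Ikaros cells. The change of its difference from 0 to 24 h was not called (-1.53, adjusted p = 0.0549 in limma).

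In the genes of complex I described next, Ikaros cells were higher, and the lines began to part earlier than 24 h. Ndufa6, a supernumerary subunit of the matrix arm, was at 16.04, 15.86 and 15.89 in control and at 16.78, 16.79 and 16.84 in Ikaros cells at 24 h. Its differences at 12 and 18 h were 0.37 and 0.45, and that at 24 h was 0.88 ± 0.12 (adjusted p = 2.47e-07 in limma), with no overlap at 24 h. Ndufb11, of the membrane arm, was called higher at every time from 2 h on, by 0.25 at 2 h and 0.44 at 24 h (adjusted p = 0.0389 and 6.3e-05 in limma). The 2 h call was lost without any 1 of the replicates, with values from 0.21 to 0.30, and with only the groups compared. At 0 h the Ikaros libraries of Ndufb11 already lay wholly above control, with means of 16.72 and 16.54, a difference that was not called. Its change of the difference from 0 h was called only at 12 h (0.36, adjusted p = 0.0216 in limma). That change had an adjusted p of 0.897 at 2 h and 0.0831 at 24 h in limma. Rbm10 overlaps Ndufb11 on the other strand.

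Complex II, succinate dehydrogenase, is also an enzyme of the TCA cycle and is the complex with no mitochondrially encoded subunit. Its 4 genes did not move alike. Sdhb, the iron-sulphur subunit, was at 14.84, 14.79 and 14.67 in control and at 14.14, 14.14 and 14.13 in Ikaros cells at 24 h. It had been lower since 6 h (-0.24, then -0.50 and -0.65) and differed by -0.63 ± 0.09 at 24 h (adjusted p = 1.01e-06 in limma), the libraries of the lines well apart.

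The membrane anchor Sdhd differed by -0.78 ± 0.18 at 24 h (adjusted p = 0.000465 in limma), after -0.12 at 18 h. Its means at 0 h were already 16.29 in control and 15.99 in Ikaros cells. The change of its difference from 0 to 24 h was not called (-0.48, adjusted p = 0.121 in limma). The other anchor, Sdhc, was at -0.32 ± 0.15 (adjusted p = 0.061 in limma) and was called with the culture batch as a block (adjusted p = 0.0446 in limma). Sdhc was also called with the trend in GC content and length removed, with or without the block, and its lines did not overlap at 24 h. Sdha, the flavoprotein that binds succinate, lay at 15.77, 15.68 and 15.88 in control and 15.85, 15.69 and 15.73 in Ikaros cells, which overlap (-0.02 ± 0.10, adjusted p = 0.866 in limma). At 12 h Sdha and Sdhc were called higher, by 0.34 and 0.47, while Sdhb was lower.

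Complex III hands electrons from ubiquinol to cytochrome c. At 24 h 5 of its 8 genes measured here were lower and the other 3 were not called (median -0.65), the highest of them at 0.38. The small subunit Uqcr10 was at 15.53, 15.44 and 15.95 in control and at 14.21, 14.55 and 14.05 in Ikaros cells, with no overlap. The difference was -1.37 ± 0.24 (adjusted p = 1.56e-05 in limma), after -0.88 at 18 h. Uqcrq, another small subunit, differed by -1.01 ± 0.34 (adjusted p = 0.0118 in limma), and this call was lost without replicate 1 (-0.95, adjusted p = 0.0808 in limma). The change of its difference from 0 to 24 h was not called (-0.96, adjusted p = 0.101 in limma).

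Complex IV, cytochrome c oxidase, reduces oxygen. At 24 h 8 of its 13 genes were lower and the other 5 were not called (median -0.53), while at 12 h 3 were higher and 10 were not called. Cox5a, a subunit present in all tissues, was at 18.59, 18.67 and 19.30 in control and at 17.16, 17.32 and 16.92 in Ikaros cells at 24 h. Its difference at 6, 12 and 18 h was -0.87, -0.09 and -0.90 (adjusted p = 0.0185, 0.827 and 0.00915 in limma). At 24 h it was -1.72 ± 0.29 (adjusted p = 9.32e-06 in limma). The lines were apart at 24 h and overlapped at 12 h. Ndufa4 differed by -0.48 ± 0.19 at 24 h (adjusted p = 0.0273 in limma). Leaving out replicate 1 or 3, or removing the trend in GC content and length, ended that call (-0.26 without replicate 3). The change of the Ndufa4 difference from 0 to 24 h was not called (-0.32, adjusted p = 0.334 in limma).

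Complex IV holds pairs of genes for one position, of which one form is known from heart and skeletal muscle and the other from most tissues. The muscle form Cox6a2 was at 11.81, 11.94 and 11.93 in control and at 12.89, 13.05 and 13.14 in Ikaros cells at 0 h, and at 11.32, 11.59 and 11.51 against 13.76, 14.23 and 14.23 at 12 h. The lines were separate at each of these times. The difference was 1.14 before induction and 2.60 ± 0.22 at 12 h (adjusted p = 2.26e-10 in limma). At 18 h it was 1.90 and by 24 h 0.41 (adjusted p = 0.104 in limma), and the gene was called at every time except the last. The 24 h difference was called without replicate 3 (0.83, adjusted p = 0.00753 in limma) and with the trend in GC content and length removed (0.53, adjusted p = 0.0356), and was 0.08 without replicate 1. Itgad overlaps Cox6a2 on the other strand.

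The general form Cox6a1 differed by 0.43 at 12 h (adjusted p = 0.0199 in limma) and by -0.67 ± 0.15 at 24 h (adjusted p = 0.00029 in limma). The muscle form Cox7a1 was at 12.91, 13.54 and 13.28 in control and at 14.41, 14.34 and 14.64 in Ikaros cells at 12 h. At 24 h it was at 13.40, 13.40 and 13.26 against 11.92, 11.41 and 11.60. The lines were separate at both times but in opposite order, with a difference of 1.22 at 12 h (adjusted p = 0.00885 in limma) and of -1.71 ± 0.37 at 24 h (adjusted p = 0.000261). The general form Cox7a2 differed by 0.05 at 12 h and -0.73 ± 0.29 at 24 h (adjusted p = 0.0315 in limma), which was no longer called when replicate 1 or 3 was left out (-0.46 without replicate 3) or the trend in GC content and length removed without the block. Means of Cox7a2 at 0 h were 17.20 in control and 16.90 in Ikaros cells. The change of its difference from 0 to 24 h was not called (-0.44, adjusted p = 0.405 in limma).

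Complex V makes ATP as protons turn a ring of c subunits. At 24 h 9 of its 15 genes were lower and the other 6 were not called (median -0.59). Atp5b, the catalytic beta subunit, was at 17.89, 18.05 and 18.06 in control and at 16.85, 16.82 and 16.95 in Ikaros cells, with a wide gap between the lines. The differences at 12 and 18 h were -0.14 and -0.64, and that at 24 h was -1.13 ± 0.08 (adjusted p = 3.55e-12 in limma). Of the 5 genes for the F1 head, 2 were lower at 24 h and 3 were not called (median -0.30).

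The genes Atp5g1, Atp5g2 and Atp5g3, whose upstream sequences are shown above, encode the same mature c subunit behind different import sequences, and they took separate courses. Atp5g1 was at 14.91, 14.82 and 15.26 in control and at 12.73, 13.29 and 12.92 in Ikaros cells at 24 h, after differences of -0.80 at 12 h and -1.57 at 18 h. It differed by -2.02 ± 0.28 (adjusted p = 6.24e-07 in limma), the lowest value of the 76 subunits, with no overlap. Atp5g3 was at 17.25, 17.45 and 17.58 in control and 16.01, 16.69 and 16.24 in Ikaros cells, also without overlap, a difference of -1.11 ± 0.17 (adjusted p = 3.62e-06 in limma). At 12 h Atp5g3 had been 0.44 higher (adjusted p = 0.0403 in limma).

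Atp5g2 was not lower at any time by the test. At 18 h it was at 17.42, 16.95 and 17.69 in control and at 18.37, 18.16 and 18.32 in Ikaros cells. The lines were apart there, and Ikaros cells were higher by 0.93 (adjusted p = 0.000313 in limma), after 0.64 at 12 h (adjusted p = 0.0116). At 24 h the lines overlapped, with 17.67, 17.63 and 18.21 in control and 18.21, 17.89 and 17.87 in Ikaros cells (0.15 ± 0.20, adjusted p = 0.53 in limma; -0.04 without replicate 1). On the deposited scale, which the authors adjusted for length, Atp5g1 was the lowest of the 3 in control cells at 24 h. No test between the 3 genes was made.

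**Figure D3:**
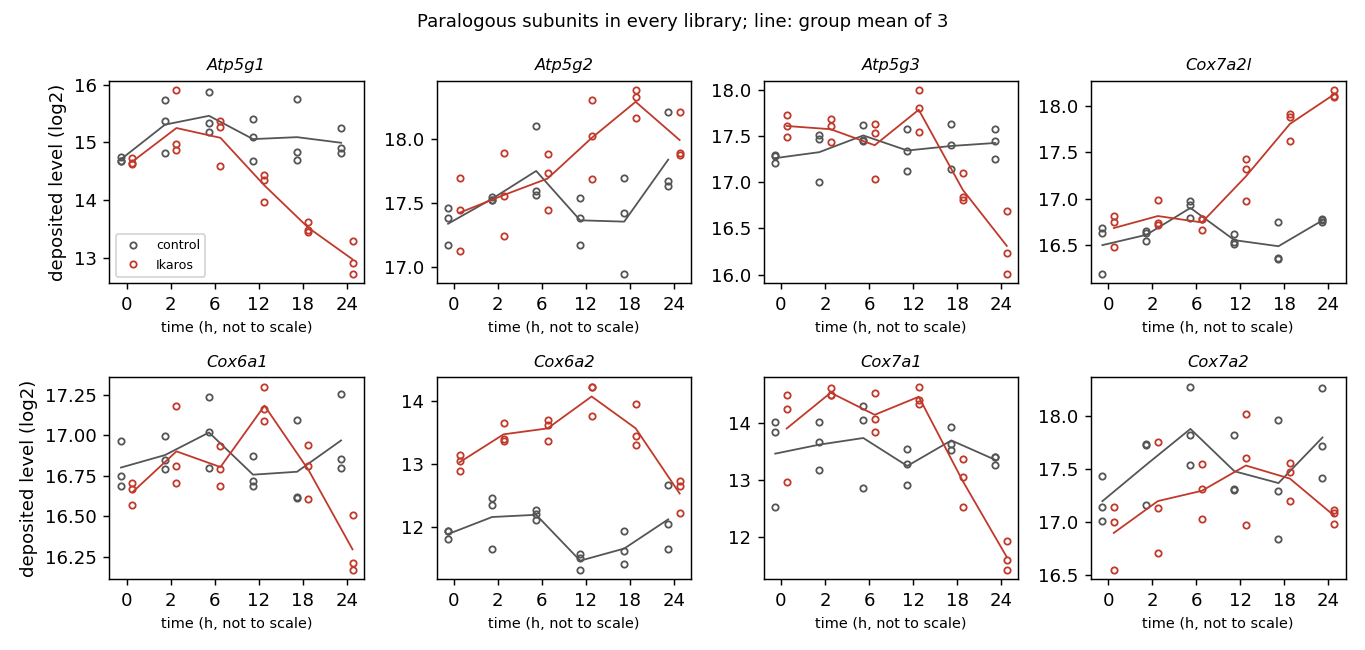
Each panel is 1 gene, with the deposited log2 level on the y axis and time in hours (not to scale) on the x axis. Open circles are single libraries, grey for control and red for Ikaros, and lines join the means of 3. Atp5g1 and Atp5g3 end below control and Cox7a2l above it, Atp5g2 is above control at 12 and 18 h and overlaps it at 24 h, Cox6a2 is called from 0 to 18 h and not at 24 h, and Cox7a1 crosses from above control at 12 h to below it at 24 h.

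All 12 members that are not subunits were called at 24 h, 7 lower and 5 higher, where 62.9% of all genes were called. Of the 7 Ndufaf assembly factors, which build complex I, 6 were lower and 1 higher at both 18 and 24 h. Ndufaf4 was at 12.44, 12.59 and 12.37 in control and at 10.19, 10.55 and 10.08 in Ikaros cells at 24 h. It had been lower since 6 h (-0.93, then -1.53 and -2.35), with the lines apart, and its -2.19 ± 0.18 at 24 h (adjusted p = 4e-11 in limma) was the lowest value of the 88. Ndufaf6 followed a similar course, with -0.61, -0.84 and -1.56 for 6, 12 and 18 h and -1.48 ± 0.16 at 24 h (adjusted p = 4.54e-09 in limma). Ndufaf3 was the one that rose, by 0.55 and 1.03 for 12 and 18 h and by 1.21 ± 0.17 at 24 h (adjusted p = 5.14e-07 in limma), and Impdh2 overlaps it on the other strand.

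Cox7a2l encodes a relative of the Cox7a subunits that joins complexes III and IV in supercomplexes. At 24 h it was at 16.77, 16.78 and 16.75 in control and at 18.17, 18.11 and 18.09 in Ikaros cells, the groups far apart. The differences for 12 and 18 h were 0.69 and 1.32, and 24 h gave 1.36 ± 0.13 (adjusted p = 6.09e-10 in limma), the highest of the 88. Sdhaf2, which attaches the flavin to Sdha, was lower in Ikaros cells up to 12 h (-0.32, -0.42, -0.49 and -0.25 in order of time) and higher at 24 h by 0.57 ± 0.08 (adjusted p = 2.58e-07 in limma), and Cpsf7 overlaps it on the other strand. The 2 h call of Sdhaf2 was lost with only the groups compared. Atp5sl, which the annotation names Dmac2 after its part in complex I assembly, was 1.13 higher at 24 h (adjusted p = 5.86e-07 in limma) and was singled out after its values were seen.

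**Figure D4:**
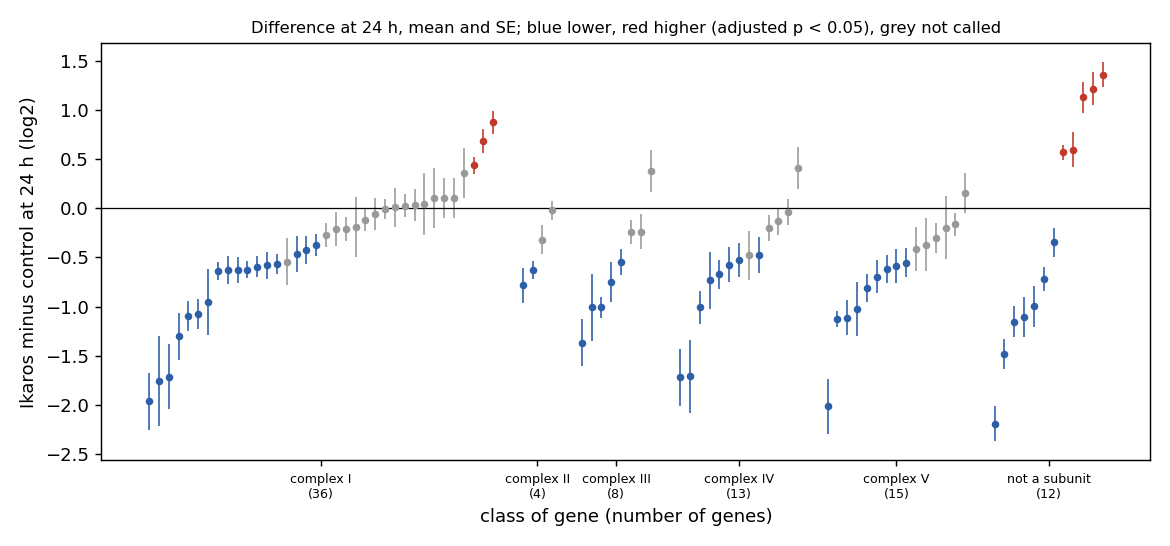
Each point is 1 of the 88 genes, grouped by complex along the x axis with the number of genes in brackets. The y axis is the difference at 24 h, Ikaros minus control, on the log2 scale with its SE from limma (n = 3 per line), blue for genes called lower, red for genes called higher and grey for the rest. The only red points within the complexes are the 3 of complex I, while 5 of the 12 genes that are not subunits are red.

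The pathway's other genes were read from lists, whose counts at 24 h stand beside 31.9% of all genes lower and 31.0% higher. Of the 12 measured genes of the mitochondrial DNA for subunits of complexes I, III, IV and V, 6 were lower and 6 not called at 6 h (median -0.42, with 19.2% of all genes lower). From 0 to 6 h the group means of all 12 rose in control cells, while those in Ikaros cells moved both ways. At 12 h limma called 0 of the 12, and 0 were below 0.05 before adjustment, as 51.9% of all genes were. At 24 h, 8 were lower and 4 not called (median -0.31). Libraries were made from RNA bound to oligo dT, and the part of tail length in the values of mitochondrial transcripts was not tested. Of 28 assembly factors whose symbols lie outside the rule, 19 were lower and 2 higher at 24 h (median -0.61). Cyc1, the cytochrome c1 of complex III, differed by -0.88 ± 0.11 (adjusted p = 1.67e-07 in limma) and Cycs, cytochrome c itself, by -1.58 ± 0.30 (adjusted p = 4.77e-05).

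Of 12 genes for regulators of mitochondrial biogenesis, 8 were lower and 1 higher at 24 h (median -0.56). Pprc1, a coactivator of the PGC-1 family, was at 13.90, 13.88 and 13.94 in control and at 10.34, 10.78 and 10.23 in Ikaros cells. At 0 h it was at -0.41 (adjusted p = 0.22 in limma), and it was called lower from 2 h on (-0.82, adjusted p = 0.00214), though the change from 0 to 2 h was not called (adjusted p = 0.579). It differed by -1.26, -1.87 and -2.95 for 6, 12 and 18 h and by -3.46 ± 0.19 at 24 h (adjusted p = 8.88e-15), with the lines separate. Ppargc1b, which encodes PGC-1 beta, took the same direction, with -0.35 at 0 h (adjusted p = 0.537 in limma), -0.99 at 2 h (adjusted p = 0.00801; change from 0 h, adjusted p = 0.514) and -3.78 ± 0.26 at 24 h (adjusted p = 1.51e-12).

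The DNA-binding factors and the GABP subunits of the list moved less. Nrf1, whose motif is shown above, differed by -0.82 at 24 h (adjusted p = 1.81e-06 in limma) and Esrra by -0.53 (adjusted p = 0.0042). At 0 h the means of Nrf1 were already 12.60 in control and 12.30 in Ikaros cells, and those of Esrra 12.46 and 12.21. The change of the difference from 0 to 24 h was -0.52 for Nrf1 (adjusted p = 0.0148 in limma). For Esrra that change was not called (-0.28, adjusted p = 0.313 in limma). The GABP subunit Gabpb1 was higher at 2 h by 0.85 (adjusted p = 4.21e-08 in limma) and at 6 h by 0.72, and stood at 0.11 at 24 h (adjusted p = 0.271). At 24 h Gabpa was at 0.39 (adjusted p = 0.0381 in limma; lost in 4 of the 11 other settings), Yy1 at 0.32 (adjusted p = 0.0566) and Gabpb2 at -0.02 (adjusted p = 0.94; 0.06 without replicate 2). The genes for the mitochondrial transcription machinery were lower at 24 h, Tfam by -0.59, Tfb1m by -0.80, Tfb2m by -0.64 and Polrmt by -0.48 (adjusted p = 0.000207, 2e-05, 1.92e-05 and 7.16e-05 in limma). Means of Polrmt at 0 h were 12.42 in control and 12.22 in Ikaros cells. The change of its difference from 0 to 24 h was not called (-0.28, adjusted p = 0.0826 in limma). That change was called for Tfam, Tfb1m and Tfb2m.

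The pathways that feed the respiratory chain are given for comparison. Of 13 TCA cycle genes outside complex II, 9 were lower and 1 higher at 24 h (median -0.32). Of 18 genes for glycolysis and glucose or lactate transport, 12 were higher and 6 not called at 2 h (median 0.61, with 9.18% of all genes higher), and 17 were lower and 1 higher at 24 h (median -1.70). At 0 h all 18 group means were already higher in Ikaros cells (median 0.30, 1 gene called), and limma called 0 of the 18 changes of the difference from 0 to 2 h (2 at an unadjusted p below 0.05).

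**Figure D5:**
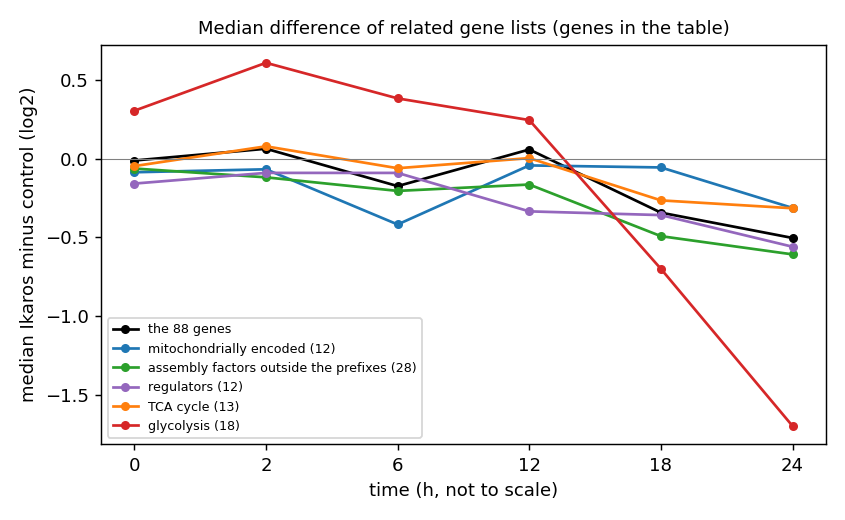
Each line joins the median difference, Ikaros minus control on the log2 scale, of 1 gene list at 0, 2, 6, 12, 18 and 24 h (x axis not to scale), with the number of genes in the table in brackets. All 6 medians are below 0 at 24 h, from -0.31 for the mitochondrially encoded genes to -1.70 for glycolysis, and at 2 h that of glycolysis is the highest, 0.61.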

How the data were processed

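Expression was read from a table of 12762 genes in 36 libraries, all columns of which were used. The deposited values were read as log2 values, the scale that cqn returns, since the sources used here do not state the base: the authors aligned reads to mm10 with TopHat2, counted fragments per gene with HTSeq, normalised for GC content and length with cqn and corrected differences between library preparations with ComBat in its non-parametric form. The versions are not given in the sources used here. The lowest value of the table is 1. Adjustment before deposition may make standard errors too small.

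Groups were taken from the labels. limma 3.58.1 in R 4.3.3 was fitted as one model of 12 group means with 22 contrasts, and two-sided p-values were adjusted by Benjamini-Hochberg over all genes per contrast. The members and the gene lists were chosen with earlier results of these data known. Promoter motifs were chosen after the expression values were seen.

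Genes were named by a rule: in each class the 2 largest rises and falls at 24 h among called members whose libraries did not overlap, the same over all members at 2 h, sets of paralogues with Ndufa4, the Sdh genes, Cyc1, Cycs, the regulators and Ikzf1. The results of 1 gene that the rule gave are not reported here. The fitting script was tested on simulated data, where its first pass mark was missed and then lowered; the genes called were then checked against the number their spreads allow.

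From 2 h on, batch numbers in the labels mark repeats of the time course. Flasks of both lines were harvested together in each repeat per the methods, so the numbers pair the libraries. The 0 h cells were obtained separately, and whether their batch numbers name the same repeats is not stated. The block uses the batch numbers and not the replicate numbers. It treats equal numbers as the same batch, so its counts against 0 h rest on that assumption. After subtraction of group means, paired libraries had correlations across genes from -0.062 to 0.507 over 18 pairs (median 0.127, 12 above 0.1). Alternatives were the culture batch as a block, removal of each library's trend in GC content and length (with and without the block), a filter at the 25th percentile of mean expression (9571 genes), quantile normalization, centring on library medians, eBayes with trend and robust settings, only the groups compared, and leaving out each replicate.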

Additional observations from a re-analysis of the deposited data

Results flagged for a closer look

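A difference between the lines that changed over time was taken as a reason for a closer look. It changed between 0 and 24 h in 43 of the 88 genes (48.4% of all genes) and between 2 and 24 h in 48 (47.3%). The F test over the 5 changes called 50 (59.8% of all genes), each by limma at an adjusted p below 0.05. A change as such is therefore not particular to the members. The test in each case is of the change itself. No group has more than 3 libraries, so no search for a single outlying library was made.

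Among the subunits, the change from 0 to 24 h was -1.95 for Ndufa5, 0.80 for Ndufa6, -0.63 for Sdhb, -1.14 for Uqcr10, -1.47 for Cox5a, -0.52 for Cox6a1 and -2.15 for Cox7a1. In the ATP synthase it was -1.98 for Atp5g1, -1.46 for Atp5g3 and -1.08 for Atp5b. Of the members that are not subunits, Ndufaf4 changed by -2.00, Ndufaf6 by -1.48, Cox7a2l by 1.17, Ndufaf3 by 1.20 and Sdhaf2 by 0.88. Among the pathway's other genes the change was -0.87 for Cyc1, -1.70 for Cycs, -3.43 for Ppargc1b, -3.05 for Pprc1, -0.52 for Nrf1, -0.55 for Tfam, -0.76 for Tfb1m and -0.52 for Tfb2m, and Ikzf1 itself changed by 0.90. The 0 h cultures were collected on separate occasions, which cannot be told apart from time in these values.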

How the results depend on the processing

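At 24 h the direction held: over the 11 alternatives 47 to 60 of the 88 genes were called, and of the 56 none reversed. Over all genes tested, calls at 24 h ran from 6248 without replicate 2 to 8362 with the culture batch as a block, beside 8024 in the reported fit. The culture batch as a replicate block called 60 there (8 higher, 52 lower), and with GC content and length removed as well 59 (11 and 48), or 54 (10 and 44) with that removal alone. Of the counts and medians under all alternatives, 267 stayed within 1.5 times or 1 SD of the reported ones and 51 moved, the cause of which was not tested.

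With the replicate block, counts moved to 6 for Ikaros against control at 2 h, 5 for the change from 0 to 6 h, 21 and 21 for Ikaros cells at 2 and 6 h against 0 h, and 33 and 1 for control cells at 6 and 18 h. With block and GC content and length removal they were 4 and 10 between the lines at 0 and 2 h, 7 for the change to 6 h, 11 for Ikaros cells at 2 h, and 24 and 1 for control cells at 6 and 18 h. Removal without the block gave 9 (8 higher, 1 lower) between the lines at 2 h, 6 for the change to 6 h and 7 for Ikaros cells at 6 h, and the median at 0 h was 0.0697 with either removal. Trend and robust settings gave 5 at 2 h. With only the groups compared, counts were 1, 1, 3 and 15 between the lines at 0, 2, 6 and 12 h, 0 and 3 for Ikaros cells at 2 and 6 h and 0 for control cells at 6 h. Over all genes, calls between the lines at 2 h were 2927 with the block and 860 with only the groups compared, beside 2432 in the reported fit. Under the alternatives, no counts over all genes are given here for comparisons with 0 h or for changes of the difference.

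Leaving out each replicate gave 0 to 2, 2 to 9, 5 to 19 and 15 to 23 calls between the lines at 0, 2, 6 and 12 h. Over all genes the calls there were 318 to 1204, 804 to 2719, 2640 to 4971 and 3769 to 5921. The change from 0 h gave 0 to 3, 2 to 9, 17 to 27 and 25 to 37 calls at 6, 12, 18 and 24 h, that from 2 to 24 h 27 to 45, and the F test 27 to 44. Against 0 h, Ikaros cells gave 0 to 1, 0 to 9 and 11 to 21 calls at 2, 6 and 12 h, and control cells 0 at 6 h. Of the values of single genes 444 kept direction and call, 17 lost a call, 9 gained one and 3, none of them called, changed sign: without each replicate Atp5g2 ran from -0.0399 to 0.3969, Sdha from -0.0740 to 0.0469 and Gabpb2 from -0.0786 to 0.0554. Each group has 3 libraries of unknown depth.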
